A study of Homo sapiens with 12 samples.

Results

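K562 cells that express AE9a were compared with wild type K562 cells, both 24 h after nucleofection with 3 µg of a control siRNA. The comparison takes 6 of the series' 12 arrays, the 3 titled AE9a with control siRNA and the 3 titled wild type with control siRNA, and covers the 20046 genes with 1 annotated symbol, of which 13929 were bright enough to be tested. The other 6 arrays carried the same lines given an siRNA against PRMT1 (siPRMT1), and they serve below as separate arrays of the same line difference. Both groups share the parent line, the RPMI 1640 medium with fetal bovine serum and the nucleofection. The labels do not say how AE9a was introduced or selected, whether the AE9a line is 1 clone or a pool, or whether wild type cells carried an empty vector. Expression of AE9a, the selection of the line and its separate passage therefore cannot be told apart. Nothing says that the 3 replicates of a group came from separate cultures, so a p-value here rests on the spread between samples that may differ for technical reasons alone.

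AML1-ETO is the product of the translocation that joins RUNX1 to RUNX1T1 (ETO) in acute myeloid leukemia. It keeps the DNA-binding domain of RUNX1, a transcription factor that builds the blood lineages, and adds the part of ETO that recruits corepressors and histone deacetylases. AE9a is a shorter splice form that lacks the end of ETO and is strongly leukemogenic in mice. K562 is an established line from a patient with chronic myeloid leukemia in blast crisis, carries BCR-ABL, and makes embryonic and fetal hemoglobin, so erythroid genes are its own program.

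Raw probe intensity had a median between 62.6 and 67.8 on the AE9a arrays and between 66.4 and 74.3 on the wild type arrays. The 95th percentile of 457 olfactory receptor probes, taken as the background level, lay between 72.6 and 79.4 on the AE9a arrays and between 73.7 and 81.3 on the wild type arrays. On the 6 arrays the lines parted along the first principal component (73.5% of the variance). The second component (14.8%) spread the wild type arrays (30.6, 3.46 and -35.4) far more than the AE9a arrays (5.96, -3.28 and -1.30). On all 12 arrays, wild type control 3 lay at -15.8 on the second component, away from the other two wild type controls at 21.9 and 21.7. The fetal hemoglobin genes HBG1 and HBG2 were among the brightest genes of both lines, GATA1 read 1078, 1229 and 989.5 in AE9a cells, against 859, 1073 and 784 in wild type cells, and the erythroid genes KLF1, TAL1, TFRC and RHAG were above background on all 6 arrays. Arrays of bulk RNA cannot tell fewer cells of a type from less RNA per cell.

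The RNA of the fusion could not be followed with these probes. None of the 5 RUNX1T1 probes rose above the background level on any AE9a or wild type array, and the one that stood for the gene read 64.9, 60.9 and 64.5 in AE9a cells, against 75.5, 72.1 and 69.9 in wild type cells (log2 difference -0.07 ± 0.05, adjusted p = 0.378). The sources used here do not place these probes relative to the part of ETO kept in AE9a, so they check nothing about the labels. RUNX1, measured by 1 probe above background, read 185, 187 and 176 in AE9a cells, against 145, 128 and 145 in wild type cells. Its AE9a arrays all lay above its wild type arrays, but the difference did not pass (0.33 ± 0.13, adjusted p = 0.0855).

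A gene was called when its adjusted p was under 0.05, with the brightest probe standing for the gene. In AE9a cells 2268 genes were higher (16.3% of the 13929 tested) and 2375 were lower (17.1%), with a median log2 difference of -0.02 over all genes. Median scaling in place of quantile normalization turned the split of called probes to 4444 higher and 2806 lower, against 3747 higher and 3808 lower. By at least 2-fold, 512 genes were higher and 386 lower. The AE9a and wild type arrays did not overlap for 4578 of the 4643 called genes. That follows largely from the calling and is not further evidence, and the share over all tested genes is not given here. Differences below are log2 of AE9a minus wild type with their standard error, and levels are deposited intensities in arbitrary units. Group counts of 3 or fewer often moved by 1 to 3 members when 1 array was left out. Every group count below stands against 16.3% of all tested genes higher and 17.1% lower, and no list was tested as a set. A probe dark in 1 line could pass the brightness filter through the other line, while genes dark in both lines could drop out.

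The largest rises were those of cancer-testis genes, which are normally silent outside the germ line and placenta. PAGE5, an X-linked antigen of this class, read 12445, 14678 and 14141 in AE9a cells, against 109, 109 and 98.1 in wild type cells (log2 difference 6.87 ± 0.15, adjusted p = 6.53e-13). VCX3A, of the variable charge family made in male germ cells, read 8159, 7625 and 7039.6 in AE9a cells, against 118, 88.2 and 68.8 in wild type cells (6.25 ± 0.15, adjusted p = 1.25e-12). In both genes the dimmest AE9a array lay far above the brightest wild type array, and the wild type arrays lay close to the background level, which 2 of them passed for VCX3A. A further PAGE5 probe differed by 6.75 ± 0.13, and a much dimmer VCX3A probe by 1.5 ± 0.10. VCX and VCX3B differed by 6.16 ± 0.18 and 6.12 ± 0.15; the copies of this family are near-identical, and their probes may read more than 1 copy.

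The probes of several other members were above background on every AE9a array and on no wild type array, so their folds are lower bounds. A bound sets the mean of the bright line against a floor on each array of the dim line, all normalized. That floor was the background level or the probe's own signal, whichever was higher. PAGE1 read 2178, 2329 and 2232 in AE9a cells, against 49.0, 47.8 and 37.9 in wild type cells, at least 26.2-fold higher (adjusted p = 3.4e-13). CTAG2, of the NY-ESO-1 family, read 2133, 2445 and 1959.8 in AE9a cells, against 58.6, 56.7 and 50.7 in wild type cells, at least 25.3-fold higher (adjusted p = 7.42e-13). By these probes both genes were above background in AE9a cells alone, and a dimmer CTAG2 probe differed by 1.48 ± 0.09. MAGEA1, the first member of the MAGE family of tumour antigens, read 1515, 1695 and 1547 in AE9a cells, against 62.9, 56.6 and 51.5 in wild type cells (log2 difference 4.57 ± 0.11, adjusted p = 1.62e-12). A second MAGEA1 probe, above background on all arrays of both lines, differed by 2.17 ± 0.14, so the gene was measured in wild type cells too. CT47A7 was at least 25.4-fold higher (a dimmer probe by 0.64 ± 0.08) and MAEL, a protein of the piRNA pathway in germ cells, at least 27.9-fold higher. RHOXF2B, a germ-cell homeobox gene, was at least 30.4-fold higher by the probe that stood for it, and a second probe near background did not pass (0.11 ± 0.07); RHOXF2 is a near-identical copy. Of 39 listed cancer-testis and germline genes, 35 were on the array and 30 were tested. Of these 22 were higher and 1, SPANXA1 (-0.52 ± 0.09), was lower, with a median of 1.08 against -0.02 over all genes. Members dark in wild type cells could pass the brightness filter through their AE9a arrays alone, while members dark in both lines could drop out. The list was also chosen with earlier results of these data known, so the share and the median may overstate the rise of the class. GAGE genes, already bright in wild type cells, rose further, with GAGE2A at 2.05 ± 0.12, and SSX1 (3.93 ± 0.11) and CT45A1 (2.57 ± 0.12) rose too, whereas MAGEA4 (-0.06 ± 0.08) and MAGEA9 (-0.06 ± 0.06) stayed at background in both lines and did not pass. The plot of the largest differences shows the array values.

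**Figure D1:**
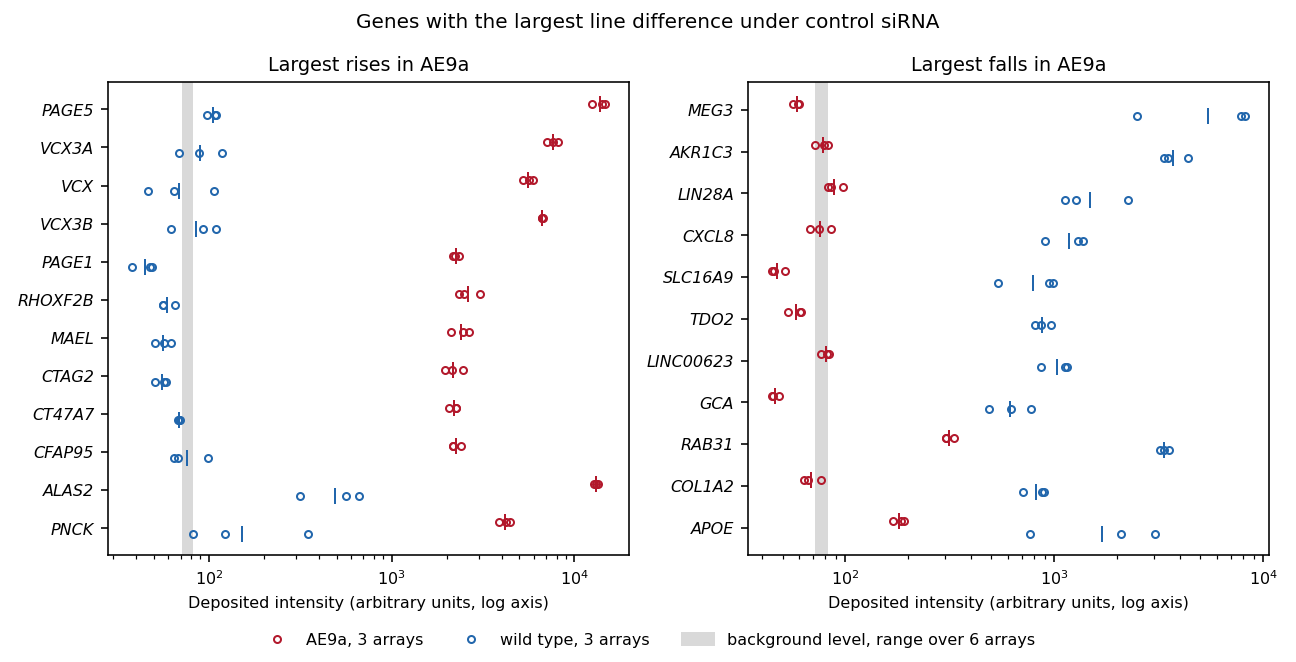
Deposited intensity (arbitrary units, log axis) of the 12 genes with the largest rise and 11 of the 12 with the largest fall in AE9a cells. Circles are single arrays, 3 per line, ticks their geometric mean, and the grey band the background level over the 6 arrays. Genes were chosen among those whose groups do not overlap and whose brighter group was above background on all 3 arrays. The wild type arrays of most rises and the AE9a arrays of most falls lie at or near the band.

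The promoters of these genes are shown because methylation of CpG sites is a known way in which cancer-testis genes are kept silent. Each line gives the 250 bases before the annotated start, from RefSeq on GRCh38.p14, with every CpG in capitals. The windows are chrX:55220096-55220345 on the plus strand, chrX:49695985-49696234 on the minus strand and chrX:6535119-6535368 on the minus strand.
PAGE5: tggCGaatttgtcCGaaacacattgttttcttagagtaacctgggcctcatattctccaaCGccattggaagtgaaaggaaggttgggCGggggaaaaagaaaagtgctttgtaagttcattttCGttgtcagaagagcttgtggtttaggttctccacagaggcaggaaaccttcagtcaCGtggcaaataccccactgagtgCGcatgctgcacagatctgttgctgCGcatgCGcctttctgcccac
PAGE1: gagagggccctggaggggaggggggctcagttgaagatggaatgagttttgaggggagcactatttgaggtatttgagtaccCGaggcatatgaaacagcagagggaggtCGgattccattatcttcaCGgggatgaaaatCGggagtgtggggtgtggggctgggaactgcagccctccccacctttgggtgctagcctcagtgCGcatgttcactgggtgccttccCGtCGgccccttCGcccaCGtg
VCX3A: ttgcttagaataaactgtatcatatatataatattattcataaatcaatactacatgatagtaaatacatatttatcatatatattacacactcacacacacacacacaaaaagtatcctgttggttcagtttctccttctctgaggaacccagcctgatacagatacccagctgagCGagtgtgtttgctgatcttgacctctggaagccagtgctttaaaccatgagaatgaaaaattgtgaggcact
PAGE5 and PAGE1 held 9 CpG sites each and VCX3A held 1. The median was 8 in the 36 windows of the cancer-testis list and 19 in the 15670 windows of all tested genes. DNA methylation was not measured. Of the enzymes that write it, DNMT3B read 1317, 1420.5 and 1325 in AE9a cells, against 754, 819 and 861 in wild type cells (0.73 ± 0.12, adjusted p = 0.000361). It was higher on every AE9a array than on every wild type array, and 2 of its other tested probes differed by 0.71 and 0.74, while a dimmer one was at 0.27 and did not pass.

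Genes of chromosome X were called higher more often than genes of any other chromosome. Of 559 tested X-linked genes, 265 (47.4%) were higher and 46 (8.23%) lower, against 16.3% and 17.1% over all genes, and 28 of the 46 genes called with at least an 8-fold rise lie on X. Without the 81 X-linked genes of cancer-testis families, a grouping by symbol made after the values were seen, 208 of 478 (43.5%) were still higher, with a median log2 difference of 0.20. Chromosomes 15 and 18 also held many higher genes (31.0% and 31.1%), whereas chromosome 4 (35.7%), chromosome 7 (34.6%) and chromosome 8 (31.0%) held many lower ones. The siPRMT1 arrays, which share no array with this comparison, gave 42.9% of X-linked genes higher and 33.3%, 34.6% and 29.3% of the genes of chromosomes 4, 7 and 8 lower. Neighbouring genes are not independent, and no DNA was measured, so copy number was not tested.

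**Figure D2:**
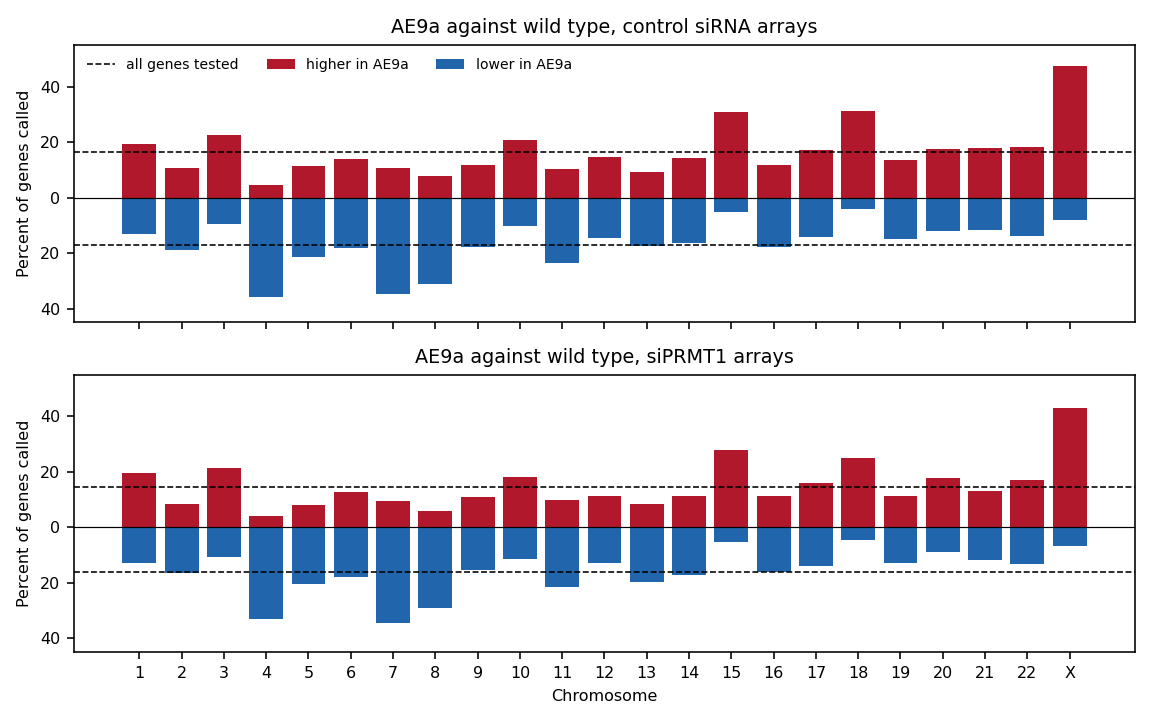
Share of tested genes called higher (bars above 0) or lower (bars below 0) in AE9a cells, in percent, for chromosomes 1 to 22 and X, on the control siRNA arrays (top) and on the siPRMT1 arrays (bottom). Dashed lines give the shares over all genes. X stands out above the line in both panels, and chromosomes 4, 7 and 8 stand out below it.

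The largest fall was that of MEG3, a maternally expressed imprinted long noncoding RNA, which read 59.3, 56.2 and 60.0 in AE9a cells, against 8183, 7874 and 2480.4 in wild type cells. It was above background on every wild type array and on no AE9a array, at least 61.2-fold lower (adjusted p = 1.42e-08). AKR1C3, an aldo-keto reductase of steroids and prostaglandins, read 83.0, 78.8 and 71.9 in AE9a cells, against 4348, 3353 and 3487 in wild type cells (log2 difference -5.37 ± 0.12, adjusted p = 7.42e-13). LIN28A, an RNA-binding protein that blocks maturation of the microRNA let-7, read 85.4, 82.6 and 97.6 in AE9a cells, against 1124, 1275 and 2252 in wild type cells (-3.90 ± 0.24, adjusted p = 2.46e-08). CXCL8, the neutrophil chemokine interleukin-8, read 85.3, 68.0 and 75.0 in AE9a cells, against 1366, 906 and 1304 in wild type cells (-3.74 ± 0.15, adjusted p = 2.74e-10). Dimmer probes differed by -2.82 ± 0.29 for MEG3 and -1.83 ± 0.20 for CXCL8. In all 4 genes the AE9a arrays lay near the background level, which 2 of 3 passed for AKR1C3 and for CXCL8. Of these, MEG3 and LIN28A varied most among the wild type arrays, yet every one of those lay far above the AE9a arrays.

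The other large falls included enzymes, transporters and lipid carriers. TDO2, the first enzyme of tryptophan breakdown in liver, was at least 10.1-fold lower, SLC16A9, of the monocarboxylate transporter family, at least 9.14-fold lower, and GCA, a calcium-binding protein of granulocytes, at least 7.15-fold lower. RAB31, a GTPase of vesicle transport, read 331, 304 and 302 in AE9a cells, against 3534, 3215 and 3351 in wild type cells (-3.41 ± 0.10, adjusted p = 7.23e-12). Its AE9a arrays stayed above background, unlike those of the first 3. APOE, a lipid carrier, read 185, 192 and 168 in AE9a cells, against 3042, 2087 and 767 in wild type cells (-3.19 ± 0.34, adjusted p = 8.49e-06). The wild type arrays of APOE differed widely among themselves, yet the dimmest still lay above every AE9a array. COL1A2 (type I collagen, -3.34 ± 0.13, with 1 AE9a array above background) and LINC00623 (-3.50 ± 0.13) also fell; dimmer probes of COL1A2 (-2.58 ± 0.13) and TDO2 (-1.50 ± 0.11) fell too, whereas a further LINC00623 probe lay at background in both lines and did not pass (0.01 ± 0.06). Rises outside the cancer-testis class among the top 12 were CFAP95, a protein of cilia and flagella (4.72 ± 0.28), PNCK, a calmodulin-dependent kinase (4.68 ± 0.50), and ALAS2.

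ALAS2, the erythroid enzyme that sets the rate of heme synthesis, read 13115, 13499 and 12717 in AE9a cells, against 315, 663 and 563 in wild type cells (log2 difference 4.72 ± 0.29, adjusted p = 2.62e-08). AHSP, the chaperone of free alpha-globin, read 1297, 1316 and 1395 in AE9a cells, against 182, 204 and 152 in wild type cells (2.83 ± 0.12, adjusted p = 4.1e-10). FECH, the last enzyme of the pathway, read 1824, 1845 and 1594 in AE9a cells, against 541, 872 and 610.3 in wild type cells (1.39 ± 0.16, adjusted p = 1.3e-05). Dimmer ALAS2 probes rose by 2.44 and 0.73. All 3 genes were brighter on every AE9a array than on any wild type array, and PPOX, the enzyme before FECH, rose with them (1.98 ± 0.21). Of 16 tested genes of the heme synthesis list 6 were higher and 2 lower. AHSP, among the 6, and BLVRA, among the 2, are no enzymes of heme synthesis. The steps between ALAS2 and PPOX moved less, with ALAD at 0.20 ± 0.17, UROS at 0.23 ± 0.14 and CPOX at 0.38 ± 0.23, none of which passed, and UROD at 0.48 ± 0.14, which did. ALAS1, the enzyme of other tissues, and BLVRA, which reduces biliverdin, were the lower members (-0.21 ± 0.07 and -0.58 ± 0.17). On leaving out any 1 of the AE9a arrays or wild type control 1, no member was called lower.

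Of 9 tested hemoglobin chains 4 were higher in AE9a cells, HBE1, HBA1, HBA2 and HBZ, and 0 lower. HBE1, the embryonic epsilon chain, read 31117, 29848 and 30213 in AE9a cells, against 3368, 4403 and 3802 in wild type cells (log2 difference 2.92 ± 0.11, adjusted p = 1.43e-10). HBA1, an alpha chain, read 26719, 27412 and 26274 in AE9a cells, against 6556, 7114 and 10328 in wild type cells (1.69 ± 0.15, adjusted p = 9.11e-07). HBA2, its paralog, read 36411, 35854 and 36624 in AE9a cells, against 20468, 23590.4 and 27745 in wild type cells (0.57 ± 0.13, adjusted p = 0.00501). Groups stayed apart in all 3. A second HBA2 probe, with mean intensities of 28336 in AE9a cells and 5316 in wild type cells, differed by 2.36 ± 0.15, so the size of the HBA2 difference depends on the probe. HBA1 and HBA2 are near-identical in sequence, and their probes may read both. HBZ, the embryonic zeta chain, read 26947, 23849.9 and 24613 in AE9a cells, against 8193, 16041 and 17499 in wild type cells (0.83 ± 0.28, adjusted p = 0.0435), a call lost in 6 of 16 alternatives. The fetal chain HBG1 read 33747, 29881 and 30722 in AE9a cells, against 32257, 30659 and 33341 in wild type cells, and its lines overlapped (-0.11 ± 0.09). HBG2 overlapped as well (-0.04 ± 0.07), and under median scaling both had the opposite sign (0.03 and 0.10). These probes and the HBA2 probe that stood for the gene were the brightest of the chains, and whether their signal was saturated was not tested, so an overlap there does not show equal levels. HBQ1, the theta chain, did not pass (0.33 ± 0.15). Adult HBB lay slightly above background in both lines (-0.22 ± 0.11) and HBD, of the minor adult hemoglobin, overlapped (0.42 ± 0.32), and neither passed.

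Blood group and membrane genes of the red cell moved in both directions. RHCE, which carries the Rh C and E antigens, read 2479, 2746 and 2489 in AE9a cells, against 150.0, 138 and 104 in wild type cells (log2 difference 4.19 ± 0.14, adjusted p = 3.23e-11). RHD, the D antigen, read 784, 980.1 and 800.4 in AE9a cells, against 74.9, 69.0 and 75.4 in wild type cells (3.37 ± 0.11, adjusted p = 3.73e-11). ADD2, an adducin of the membrane skeleton, read 83.7, 74.1 and 67.9 in AE9a cells, against 412, 533 and 320.4 in wild type cells (-2.26 ± 0.15, adjusted p = 4.49e-08). The Rh genes were thus low in wild type cells, where 1 array passed the background level for RHD, and ADD2 was low in AE9a cells, where 2 arrays did. RHCE and RHD share most of their sequence, and each probe may read both; a further RHCE probe rose by 2.91 ± 0.11. CA1, a carbonic anhydrase of red cells, was at least 2.27-fold higher. Of 21 tested members 11 were higher, among them KEL (2.18 ± 0.32), ANK1 (1.27 ± 0.19) and RHAG (0.88 ± 0.15), and 4 were lower, among them the carbonic anhydrase CA2 (-1.56 ± 0.16).

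The promoters of ALAS2 and RHD are shown with the GATA motif, the site bound by GATA1, the main transcription factor of red cells. The motif was searched as AGATAA on both strands of the 250 bases before the start and stands in capitals, as TTATCT where it lies on the other strand. The windows are chrX:55030978-55031227 on the minus strand and chr1:25272236-25272485 on the plus strand.
ALAS2: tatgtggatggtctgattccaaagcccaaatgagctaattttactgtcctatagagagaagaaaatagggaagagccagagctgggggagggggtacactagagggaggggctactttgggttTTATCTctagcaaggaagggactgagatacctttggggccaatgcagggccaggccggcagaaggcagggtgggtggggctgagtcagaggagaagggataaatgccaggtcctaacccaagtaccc
RHD: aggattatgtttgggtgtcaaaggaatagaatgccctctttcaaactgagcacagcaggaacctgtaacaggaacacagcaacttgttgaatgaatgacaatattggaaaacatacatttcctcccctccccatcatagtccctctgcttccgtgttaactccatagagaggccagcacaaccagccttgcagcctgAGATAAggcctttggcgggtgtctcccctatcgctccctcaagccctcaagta
The motif was in 8 of 32 windows of the red cell membrane list (5 of 10 for its higher members) and in 3 of 15 of the heme synthesis list. Over all tested genes it was in 5.99% of the windows, 5.39% of those higher and 5.81% of those lower. A gene may have several windows, which are not independent. The 32 came from 16 genes, the 10 from 7 of 11 higher members and the 15 from 13 genes. A match is a sequence of letters, and binding was not measured. GATA1 itself did not pass (0.27 ± 0.13), nor did KLF1 (-0.33 ± 0.18), the factor of adult globin genes.

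Of 22 tested transcription factors of erythroid and megakaryocytic cells, 2 were higher (9.09%, against 16.3% over all genes). A further 4 were lower (18.2%, against 17.1%), a count that became 2 without AE9a control 3 or wild type control 1. LMO2, the bridging protein of the GATA1 and TAL1 complex, read 907, 971 and 934 in AE9a cells, against 4699, 4681 and 3400.2 in wild type cells (log2 difference -2.17 ± 0.16, adjusted p = 1.88e-07). MYB, a factor of immature progenitors, read 2671, 2486 and 2221 in AE9a cells, against 6148, 5599 and 5135 in wild type cells (-1.20 ± 0.12, adjusted p = 5.75e-06). TAL1, their DNA-binding partner, read 369, 426 and 365 in AE9a cells, against 234, 242 and 273 in wild type cells (0.58 ± 0.14, adjusted p = 0.00786). LMO2 and MYB were lower, and TAL1 higher, on every AE9a array than on any wild type array. Iron genes also split. SLC40A1 (ferroportin), the iron exporter, read 183, 185 and 193 in AE9a cells, against 1234, 931 and 715 in wild type cells (-2.30 ± 0.20, adjusted p = 8.6e-07). TF, transferrin, read 1176, 1129.5 and 1057 in AE9a cells, against 134, 310.2 and 354 in wild type cells (2.13 ± 0.28, adjusted p = 5.51e-05). NCOA4, which delivers ferritin to lysosomes, read 17751, 15687 and 15558 in AE9a cells, against 5128, 8632 and 6544 in wild type cells (1.26 ± 0.16, adjusted p = 3.54e-05). In SLC40A1 the AE9a arrays were the lower ones (a dimmer probe at -1.57), and in TF and NCOA4 the higher ones. The receptors TFRC (-0.39 ± 0.14) and TFR2 (-1.33 ± 0.21) fell, so that 4 of 14 iron genes were higher and 5 lower. Of 15 megakaryocyte and platelet genes 3 were higher (20%, against 16.3% over all genes) and 1 was lower (6.67%, against 17.1%). The higher ones were ITGA2B (integrin alpha IIb, 1.35 ± 0.08, with 1 wild type array above background), TUBB1 (1.30 ± 0.20) and NRGN (1.02 ± 0.16). The lower one was RAB27B (at least 1.26-fold lower).

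**Figure D3:**
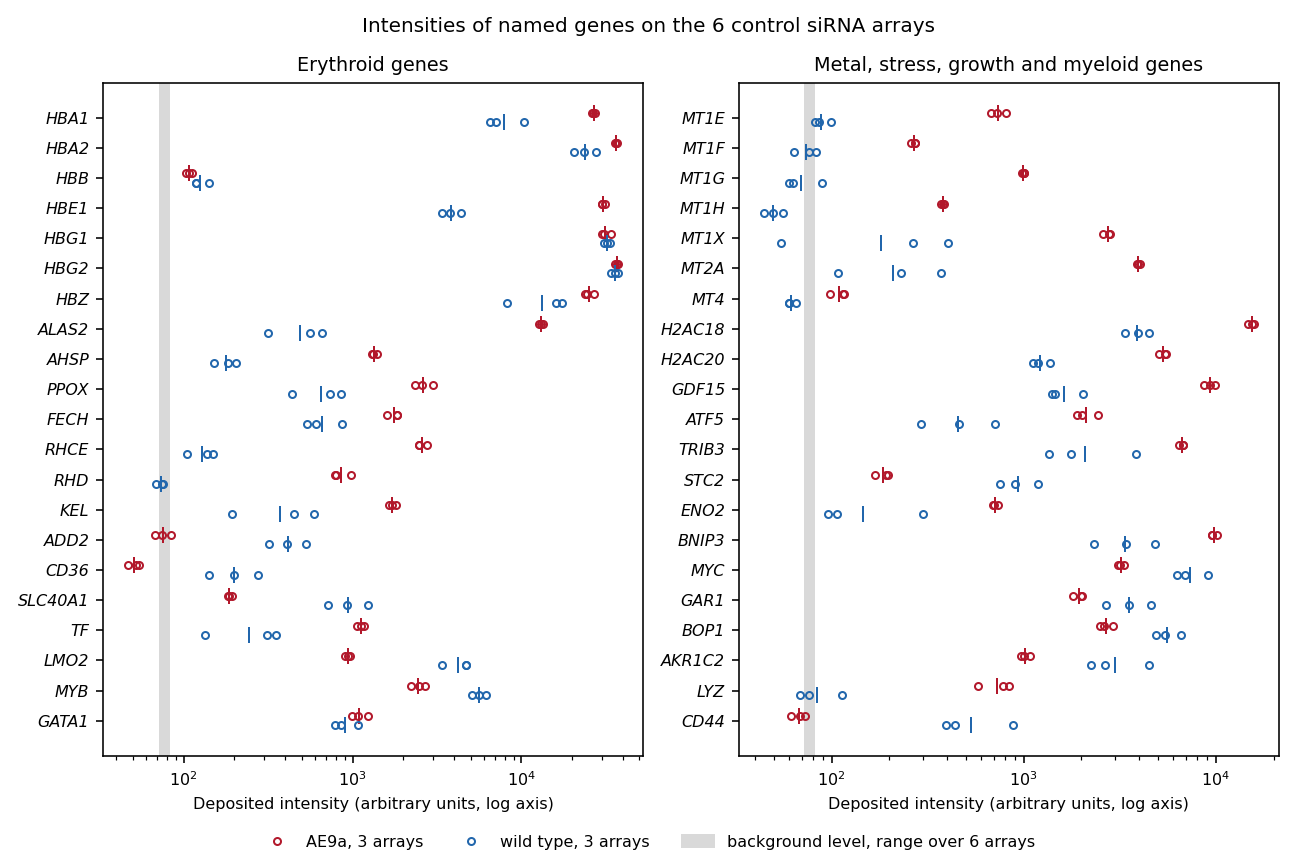
Deposited intensity (arbitrary units, log axis) on the 6 control siRNA arrays of erythroid genes (left) and of metal, stress, growth and myeloid genes (right), AE9a above wild type for each gene. Circles are single arrays, ticks geometric means and the grey band the background level. HBG1 and HBG2 overlap at the top of the scale, whereas ALAS2, HBE1 and RHCE lie far to the right in AE9a cells and LMO2 and CD44 far to the left.

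Of 20 tested genes reported elsewhere as targets of AML1-ETO, 6 were higher (30%, against 16.3% over all genes). A further 3 were lower (15%, against 17.1%), 6 without wild type control 3. The median of the 20 was -0.05. The counts do not take into account in which direction each gene was reported to change, so they do not measure agreement with those reports. LYZ, lysozyme of myeloid cells, read 839, 781 and 578 in AE9a cells, against 113, 76.2 and 68.2 in wild type cells (log2 difference 2.94 ± 0.16, adjusted p = 8.32e-09). CDKN1A, the p21 inhibitor of cyclin-dependent kinases, read 1818, 1701 and 1732 in AE9a cells, against 698, 353 and 1429 in wild type cells (1.31 ± 0.33, adjusted p = 0.00778). CD44, an adhesion receptor for hyaluronan, read 72.3, 61.6 and 68.7 in AE9a cells, against 877, 396 and 437 in wild type cells and was at least 6.18-fold lower (adjusted p = 2.97e-06). LYZ and CDKN1A were higher on every AE9a array than on any wild type array and CD44 was lower, and the wild type arrays of CDKN1A differed most among themselves. A further LYZ probe rose by 0.96, a dimmer CD44 probe fell by 0.84, and another CD44 probe lay at background in both lines. POU4F1, a transcription factor known to be high in leukemia with AML1-ETO, read 395, 311 and 296 in AE9a cells, against 164, 124 and 120.0 in wild type cells (1.20 ± 0.18, adjusted p = 0.000208). Its lines did not overlap. JUP (gamma-catenin) fell (-0.58 ± 0.12; 1 of its other probes by 0.55, another at -0.30 not passing) and SPI1 (PU.1) rose (0.58 ± 0.12). CAV1 (caveolin) rose by the probe that stood for it (1.26 ± 0.10), and its other probe did not pass (0.05 ± 0.08). ID1, an inhibitor of basic helix-loop-helix factors, read 1009, 1094 and 1084 in AE9a cells, against 1641, 636 and 1248 in wild type cells (-0.06 ± 0.25, adjusted p = 0.907). EGR1, an early growth response factor, read 4747, 4671 and 3976 in AE9a cells, against 4181, 3499 and 4211 in wild type cells (0.17 ± 0.26, adjusted p = 0.716). Both overlapped between lines and neither passed; the sign of ID1 turned under median scaling (0.02).

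In the family of RUNX factors, partners and corepressors, 1 of 12 tested genes, the histone deacetylase HDAC1 (0.38 ± 0.11, lost in 4 of 16 alternatives), was higher, and RUNX3 (-0.55 ± 0.13) and HDAC2 (-0.42 ± 0.10) were lower. These shares, 8.33% higher and 16.7% lower, stand against 16.3% and 17.1% over all genes. Averaging all probes of a gene gave 2 higher and 1 lower. CBFB, the partner that stabilises RUNX proteins on DNA, read 905, 875 and 885 in AE9a cells, against 956, 937 and 1435 in wild type cells and did not pass (-0.31 ± 0.17, adjusted p = 0.22). Of 8 tested genes listed as the C/EBP family with PU.1, 3 were higher (37.5%) and 1 was lower (12.5%). The lower one, CEBPZ (-0.77 ± 0.16), carries the symbol but is no member of the C/EBP family. CEBPA, the granulocyte factor, read 134, 122 and 114 in AE9a cells, against 77.7, 109.7 and 89.4 in wild type cells (0.38 ± 0.13, adjusted p = 0.0365), close to background and with a call lost in 7 of 16 alternatives. The core letters bound by RUNX proteins, TGTGGT on either strand, were in 8.35% of the promoter windows of higher genes, 8.27% of those of lower genes and 8.65% of those of all tested genes. PRMT1, the arginine methyltransferase named in the series' title, read 794, 817 and 695 in AE9a cells, against 1166, 1339 and 1832 in wild type cells (log2 difference -0.89 ± 0.16, adjusted p = 0.000775). It was lower on every AE9a array. Of 13 arginine methyltransferases and partners 6 were lower, among them CARM1 (-0.74 ± 0.13) and PRMT3 (-0.76 ± 0.15).

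Metallothioneins, small proteins that bind zinc and other metals, were higher in AE9a cells. MT2A read 4041, 3914 and 3917 in AE9a cells, against 107, 372 and 229 in wild type cells (log2 difference 4.19 ± 0.34, adjusted p = 5.18e-07). MT1G read 1004, 979 and 1009 in AE9a cells, against 60.2, 89.5 and 62.8 in wild type cells (3.65 ± 0.14, adjusted p = 1.69e-10). MT1X read 2821, 2602 and 2786 in AE9a cells, against 54.7, 402 and 267 in wild type cells (3.83 ± 0.61, adjusted p = 0.000309). AE9a arrays of each gene lay close together, whereas the wild type arrays of MT2A and MT1X spread several-fold, with control 1 the dimmest; without it MT1X differed by 3.02. Of 9 tested genes 7 were higher and 0 lower, against 16.3% and 17.1% over all genes; MT1E (2.91 ± 0.13), MT1H (at least 4.44-fold higher), MT1F (1.71 ± 0.12) and MT4 (at least 1.38-fold higher) complete them. The members that did not pass are no metallothioneins: the zinc exporter SLC30A1 (0.31 ± 0.23) and MTF1, the factor that switches the family on (-0.04 ± 0.15; 0.05 under median scaling). The genes are near-identical in parts, and a probe may read more than 1. On the wild type arrays 1 of 3 passed the background level for MT1G and 2 of 3 for MT1X and MT1F. On the siPRMT1 arrays the line difference was 1.79 for MT2A, 1.80 for MT1G and 1.56 for MT4.

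The promoters of MT2A and MT1X are shown with the core of the metal response element, the site of MTF1, searched as TGCNCNC on both strands and given in capitals; the motif was chosen after the values were seen. The windows are chr16:56608334-56608583 and chr16:56682220-56682469, both on the plus strand.
MT2A: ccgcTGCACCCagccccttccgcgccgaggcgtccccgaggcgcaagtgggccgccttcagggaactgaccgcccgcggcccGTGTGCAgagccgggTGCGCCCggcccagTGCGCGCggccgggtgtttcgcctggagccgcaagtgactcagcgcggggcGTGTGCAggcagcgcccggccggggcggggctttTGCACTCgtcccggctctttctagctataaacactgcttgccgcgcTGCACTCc
MT1X: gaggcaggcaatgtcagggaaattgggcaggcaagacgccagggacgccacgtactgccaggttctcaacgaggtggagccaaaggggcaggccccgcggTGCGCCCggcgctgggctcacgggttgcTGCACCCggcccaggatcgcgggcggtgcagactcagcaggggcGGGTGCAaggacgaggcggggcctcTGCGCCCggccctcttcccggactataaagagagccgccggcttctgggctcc
MT2A held 7 matches and MT1X 4, against a median of 1 in the windows of all tested genes, 54.3% of which held at least 1.

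Stress genes gave a mixed picture. GDF15, a cytokine of stressed cells, read 9363, 9937 and 8729.5 in AE9a cells, against 1463, 1403 and 2045 in wild type cells (log2 difference 2.54 ± 0.15, adjusted p = 1.97e-08). ATF5, a transcription factor of the integrated stress response, read 2023, 2449.7 and 1896 in AE9a cells, against 291, 461 and 711 in wild type cells (2.19 ± 0.26, adjusted p = 2.11e-05). STC2, a secreted glycoprotein induced by the same response, read 192, 196 and 169 in AE9a cells, against 1183, 756 and 902 in wild type cells (-2.29 ± 0.18, adjusted p = 2.74e-07). GDF15 and ATF5 were thus higher on every AE9a array and STC2 lower. Of 33 tested genes of the response 10 were higher, among them TRIB3 (1.67 ± 0.28) and DDIT3 (CHOP, 0.88 ± 0.19), and 2 lower, whereas ATF4 (0.28 ± 0.12) and ASNS (-0.14 ± 0.11) did not pass. The lower count was 4 without wild type control 1. On the siPRMT1 arrays 2 members were higher and 22 lower; that difference was tested only gene by gene. ER chaperones rose in 9 of 18 cases. HSPA5 (BiP), the master chaperone of the ER, read 556, 448 and 486 in AE9a cells, against 247, 274 and 160.1 in wild type cells (1.09 ± 0.18, adjusted p = 0.000342). DNAJB11, its co-chaperone, read 3810.2, 4467 and 4057 in AE9a cells, against 1808, 2281 and 1945 in wild type cells (1.04 ± 0.12, adjusted p = 2.43e-05). CANX (calnexin) was the member that fell, with 453, 393 and 391 in AE9a cells, against 1259, 1482 and 1078 in wild type cells (-1.62 ± 0.14, adjusted p = 8.07e-07). In each of these 3 the lines did not overlap. Of 21 heat shock genes 3 were higher (14.3%, against 16.3% over all genes), 1 without AE9a control 1, led by HSPA6 (2.78 ± 0.12; a dimmer probe by 0.50), and 3 were lower (14.3%, against 17.1%), 5 without wild type control 2, such as HSPB1 (-0.78 ± 0.11). Of 18 tRNA synthetases 4 were higher (22.2%, against 16.3%) and 3 lower (16.7%, against 17.1%), 1 lower without wild type control 3. NARS1 was at 0.80 ± 0.13 and KARS1 at -0.57 ± 0.11.

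Of 31 tested ribosome biogenesis and MYC target genes, 0 were higher and 17 lower in AE9a cells. MYC, the transcription factor that drives ribosome production, read 3175, 3349 and 3090.3 in AE9a cells, against 9114, 6303 and 6917 in wild type cells (log2 difference -1.19 ± 0.13, adjusted p = 8.98e-06). BOP1, a factor of large subunit assembly, read 2506, 2629.5 and 2918 in AE9a cells, against 4886, 5411 and 6602 in wild type cells (-1.06 ± 0.13, adjusted p = 2.95e-05). GAR1, of the H/ACA particles that modify ribosomal RNA, fell with them (-0.87 ± 0.19). In each the AE9a arrays all lay below the wild type arrays, and a further MYC probe fell by 1.21. Under median scaling 10 of the 31 were lower and 1 higher, and without AE9a control 1, 9 were lower. The median was -0.40, and on the siPRMT1 arrays 7 were higher and 3 lower. Of 41 cytosolic ribosomal proteins 4 were higher and 10 lower, RPS21 by most (-0.83 ± 0.11). Proteasome subunits were lower in 7 of 25 cases, with PSMB3 at -0.74 ± 0.13.

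Of 30 tested genes of G2 and mitosis 15 were higher and 1 lower. NUSAP1, a spindle protein, read 5819, 5135 and 5192 in AE9a cells, against 2576, 2586 and 2602 in wild type cells (log2 difference 1.06 ± 0.11, adjusted p = 7.63e-06). AURKB, the kinase of the chromosomal passenger complex, read 2219.7, 2138 and 1992 in AE9a cells, against 930.0, 1011 and 1157 in wild type cells (1.03 ± 0.11, adjusted p = 1.22e-05). In both the AE9a arrays all lay above the wild type arrays. Of 31 genes of G1/S and replication 7 were higher (22.6%, against 16.3% over all genes) and 6 lower (19.4%, against 17.1%), shares near those of all genes. E2F2, an activator of S phase genes, read 2213, 2109 and 2237 in AE9a cells, against 619, 784 and 912 in wild type cells (1.51 ± 0.13, adjusted p = 1.35e-06). CCND1, cyclin D1, read 149.8, 152 and 146 in AE9a cells, against 809, 405 and 634 in wild type cells (-1.95 ± 0.22, adjusted p = 1.14e-05). CDK6, its kinase, read 891, 745 and 712 in AE9a cells, against 1715, 2093 and 2674 in wild type cells (-1.46 ± 0.18, adjusted p = 3.44e-05). E2F2 was the higher and CCND1 and CDK6 the lower on each AE9a array. Of 14 CDK inhibitors and growth arrest genes 4 were higher (28.6%), with GADD45A at 1.03 ± 0.11, and 2 lower (14.3%), with CDKN1C (p57) at -1.73 ± 0.31.

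Replication-dependent histones, which package newly made DNA, were higher in 20 of 30 tested cases and lower in 0, with a median of 0.61. H2AC20 read 5041, 5494 and 5443 in AE9a cells, against 1121, 1368 and 1184 in wild type cells (log2 difference 2.12 ± 0.13, adjusted p = 1.77e-08). H2AC18 read 15439.5, 14800.5 and 15857 in AE9a cells, against 3365, 4475 and 3942 in wild type cells (1.95 ± 0.12, adjusted p = 3.48e-08). The lines lay far apart for both. The sequence of H2AC18 is almost that of H2AC19, so a probe for one may also read the other. Among 29 enzymes of DNA methylation and chromatin 8 were higher (27.6%, against 16.3% over all genes). A further 5 were lower (17.2%, against 17.1%), 3 under median scaling. EZH2, the methyltransferase of Polycomb, read 2389.9, 2345 and 2260.5 in AE9a cells, against 539, 634 and 914 in wild type cells (1.77 ± 0.16, adjusted p = 1.39e-06), and its further probes rose by 1.96 and 0.80. The acetyltransferases KAT2B (1.22 ± 0.17; a dimmer probe at 0.34) and KAT2A (-1.09 ± 0.18) moved in opposite directions. HOX genes were higher in 9 of 17 tested cases and lower in 0, led by HOXB8 (1.68 ± 0.16), with HOXC6 at 1.29 ± 0.12 (a dimmer probe, at 0.17, did not pass).

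Glycolysis and hypoxia genes were higher in 15 of 34 cases and lower in 3, 5 without wild type control 1. SLC2A1, the glucose transporter GLUT1, read 4989, 5325 and 4854 in AE9a cells, against 2358, 2585 and 2424 in wild type cells (log2 difference 1.03 ± 0.10, adjusted p = 2.52e-06). BNIP3, a mitophagy receptor induced by hypoxia, read 9596, 9567 and 10204 in AE9a cells, against 3406, 4807 and 2314 in wild type cells (1.55 ± 0.27, adjusted p = 0.000681). Both were higher on every AE9a array, as were ENO2 (2.19 ± 0.35) and PGK1 (1.10 ± 0.17), glycolytic enzymes, while EPAS1 (HIF-2 alpha) fell (-1.66 ± 0.25) and GAPDH (0.02 ± 0.14) and LDHA (-0.28 ± 0.12) did not pass. On the siPRMT1 arrays 5 members were higher and 9 lower. The aldo-keto reductases AKR1C2 (-1.56 ± 0.27) and AKR1C4 (-2.09 ± 0.24) fell with AKR1C3; the family is similar in sequence. Of 20 tested genes of this family and of NRF2, the regulator of antioxidant genes, 4 were higher, 2 without AE9a control 2 or 3, and 9 lower, among them NFE2L2 (NRF2) itself (-0.81 ± 0.18), while HMOX1 (0.02 ± 0.11) did not pass. Cholesterol and fatty acid genes split evenly, 7 higher and 7 lower of 27, with SC5D, a late step of sterol synthesis, at 1.80 ± 0.12 and ACACA, acetyl-CoA carboxylase, at -1.42 ± 0.10. Of 33 respiratory chain subunits 9 were higher, 5 without AE9a control 2 or 3 or wild type control 1, and 2 lower; the X-linked NDUFA1 rose most (0.84 ± 0.14).

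Immune genes moved in opposite directions within lists. IFITM3, a membrane protein that blocks virus entry, read 1244, 987 and 1149.6 in AE9a cells, against 105, 96.2 and 96.6 in wild type cells (log2 difference 3.36 ± 0.13, adjusted p = 1.69e-10). GBP2, a guanylate-binding protein induced by interferon, read 69.0, 59.3 and 65.5 in AE9a cells, against 244, 195 and 151 in wild type cells and was at least 2.33-fold lower (adjusted p = 2.26e-06). IFI35 fell too (-1.22 ± 0.14). IFITM3 and its close relative IFITM2 (3.36 ± 0.14), which share sequence, were low in wild type cells, and of 26 interferon-stimulated genes 6 were higher and 8 lower. The higher count was 3 without AE9a control 2 or 3 or without wild type control 3. Antigen presentation by MHC class I was lower in 6 of 17 tested genes and higher in 0. TAP2, of the peptide transporter, read 77.0, 72.2 and 71.2 in AE9a cells, against 386, 308 and 330.5 in wild type cells and was at least 3.97-fold lower (adjusted p = 1.03e-07), with a dimmer probe at -0.77. The proteasome activators PSME1 (-1.05 ± 0.16) and PSME2 (-1.01 ± 0.13) fell as well, and 0 of 6 tested MHC class II genes were called. Of 18 NF-kappaB and chemokine genes 1 was higher and 7 lower, among them NFKB1 (-1.21 ± 0.19) and CXCL2 (at least 1.48-fold lower). Among 28 immediate early genes 5 were higher (17.9%, against 16.3% over all genes), 3 without AE9a control 2 or 3 or wild type control 2. A further 2 were lower (7.14%, against 17.1%). JUN, of the AP-1 dimer, read 797, 837 and 740.2 in AE9a cells, against 142, 93.4 and 131 in wild type cells (2.59 ± 0.16, adjusted p = 2.49e-08). Its lines lay far apart. The S100 genes split, with S100A6 at -2.50 ± 0.30 and S100P at least 3.1-fold higher; 3 of 10 were higher and 3 lower.

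Signalling genes with large differences included the receptor KIT, which read 66.9, 65.9 and 65.3 in AE9a cells, against 293, 296 and 175 in wild type cells and was at least 2.94-fold lower (adjusted p = 2.1e-06). BCL6, a transcriptional repressor, read 659, 738 and 688 in AE9a cells, against 138, 152 and 122 in wild type cells (log2 difference 2.24 ± 0.13, adjusted p = 1.04e-08). STAT5A, a factor activated by BCR-ABL, read 1798, 1748 and 1529.9 in AE9a cells, against 3716, 5701 and 4959 in wild type cells (-1.48 ± 0.15, adjusted p = 4.4e-06). BCL6 was higher and KIT and STAT5A lower on every AE9a array. STAT5B fell too (-1.09 ± 0.15). Of 16 genes of the STAT5 list 1 was higher (6.25%, against 16.3% over all genes) and 3 were lower (18.75%, against 17.1%). Of 28 cytokine and growth factor receptors 3 were higher and 3 lower (10.7% each, against 16.3% and 17.1% over all genes). The lower count was 5 without wild type control 1. Of 12 stem and progenitor markers 2, among them ESAM (at least 4.48-fold higher), were higher (16.7%) and 3 lower (25%). Adhesion and matrix genes were higher in 5 and lower in 9 of 28 cases, with ICAM4, a red cell adhesion protein, at 1.43 ± 0.12 and ICAM3 at -1.03 ± 0.13. TGF-beta genes were higher in 3 and lower in 3 of 18 cases (16.7% each), near the 16.3% and 17.1% over all genes. They included SMAD4 (0.76 ± 0.12) and SMAD3 (-0.80 ± 0.14). WNT genes were higher in 2 (11.8%) and lower in 6 (35.3%) of 17 cases and included CTNNB1 (0.75 ± 0.15). Death genes were higher in 7 of 24 cases, 11 under median scaling, and lower in 2. Imprinted and oncofetal genes other than MEG3 and LIN28A included H19 (1.66 ± 0.52) and PLAGL1 (-1.66 ± 0.25; a dimmer probe at -1.03), with 2 of 20 higher and 7 lower. Further probes of ICAM4, CTNNB1, AKR1C2, PSME1 and CD3D lay near background in both lines and did not pass. Intermediate filaments were higher in 3 and lower in 5 of 14 cases, 2 lower without AE9a control 1 and 3 without AE9a control 3 or under median scaling.

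**Figure D4:**
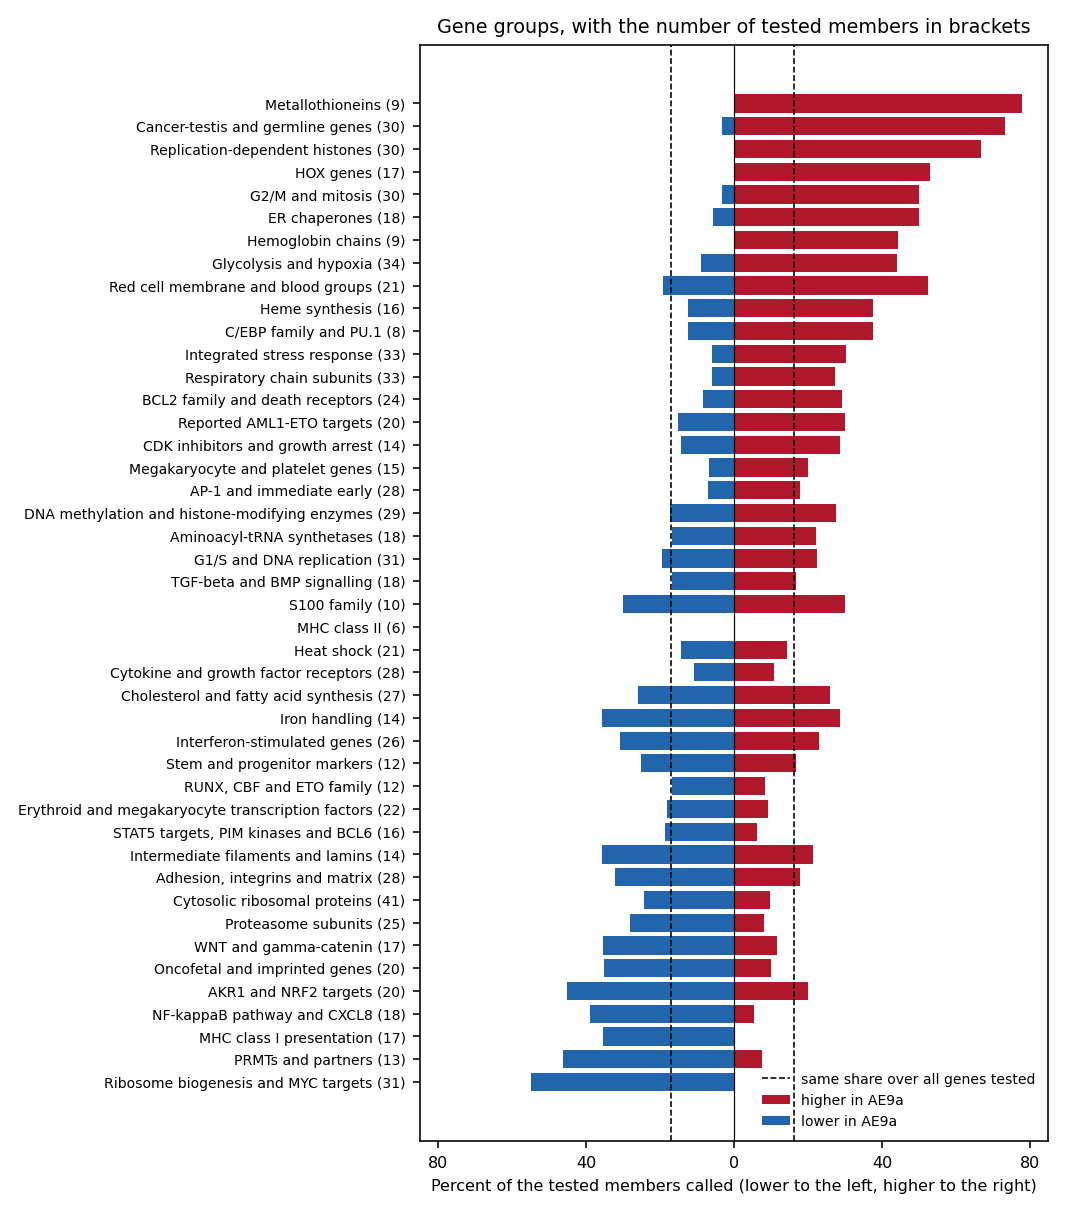
Percent of the tested members of each of 44 gene groups called higher (bars to the right) or lower (bars to the left) in AE9a cells, with the number of tested members in brackets. Dashed lines give the shares over all genes tested. Metallothioneins, cancer-testis genes and histones reach furthest to the right, and ribosome biogenesis and MYC targets furthest to the left.

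Markers of other cell types were measured beside these groups, and their part in the results was not tested. Summed over 25 granulocyte and monocyte markers the intensity ran from 8311 to 12234 in AE9a cells and from 5440.1 to 24271 in wild type cells, and the ranges overlapped; 5 of the 25 were above background on all AE9a arrays and 2 on all wild type arrays. LYZ rose and CYBB rose slightly (0.51 ± 0.09), while ITGAM (0.09 ± 0.10), CD14 (0.08 ± 0.13) and S100A8 (-0.04 ± 0.07) lay near background and did not pass. Sums over 14 mast cell and basophil markers were 1386 to 1467 in AE9a and 1597 to 2283 in wild type cells, over 16 T and NK cell markers 1454 to 1552 and 1862 to 3101, and over 15 fibroblast and endothelial markers 855.7 to 940.9 and 1777 to 1859.5, where 0 of the 15 were above background on all AE9a arrays and 2 on all wild type arrays. Over 10 B cell markers they were 645.9 to 688.8 and 597 to 696.8. Of 9 tested fibroblast and endothelial markers 3 fell, COL1A2, ACTA2 (at least 2.09-fold lower) and LUM (-0.31 ± 0.09, a call lost in 5 of 16 alternatives), and 0 rose; COL1A1 (0.08 ± 0.08) lay near background in both lines. MS4A1 of B cells (-0.03 ± 0.07) lay at background in both. The 12 epithelial markers summed to 7509.8 to 8373 in AE9a and 8574 to 12062 in wild type cells. EPCAM, an adhesion protein also made by immature red cells, fell (-0.70 ± 0.13), as did MUC1 (-1.38 ± 0.20; its dimmest probe, at -0.32, did not pass) and CLDN4, near background (-0.27 ± 0.08), whereas CLDN7 (0.89 ± 0.13) and KRT18 (0.71 ± 0.19, a call lost in 1 of 16 alternatives, with another probe at -0.28 not passing) rose and KRT19 (0.26 ± 0.32) did not pass. CD3D of T cells fell (-1.41 ± 0.45), a call lost in 6 of 16 alternatives, without CD2 (0.06 ± 0.07) or LCK (0.12 ± 0.06) doing so.

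The line difference was seen again on the siPRMT1 arrays. These were normalized together with the control arrays, and 1 fit with a shared spread per probe gave both sets of calls. The calls under the 2 siRNAs are therefore not independent. There 14.6% of genes were higher and 16.2% lower in AE9a cells. Across the 13929 genes, which are not independent replicates, Pearson's r between the line differences under the 2 siRNAs was 0.862 and Spearman's rank correlation 0.712. Taken by replicate number, r was 0.808, 0.841 and 0.722. Of the genes higher under control siRNA 91.8% had the same sign, and 62.9% were called higher, under siPRMT1, which is 70.2% of the genes higher there. Of the lower genes 93.8% had the same sign and 65.4% were called lower, 68.7% of those lower there. Over all tested genes 72.7% had the same sign, and 21.4% were called in the same direction under both. PAGE5 differed by 6.55, ALAS2 by 4.33, HBE1 by 3.21, MEG3 by -5.73 and LMO2 by -1.16 on the siPRMT1 arrays. The difference itself changed with the siRNA for 160 genes (1.15%). INHBE, an inhibin subunit of the stress response, was higher in AE9a cells under control siRNA (1.41 ± 0.24) and lower under siPRMT1 (-1.67), a change of 3.08 ± 0.33 (adjusted p = 0.000534). The lists of the stress response, ribosome biogenesis and glycolysis, whose counts under both siRNAs stand above, had more higher than lower members under one siRNA and the reverse under the other; lists were not tested for that.

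**Figure D5:**
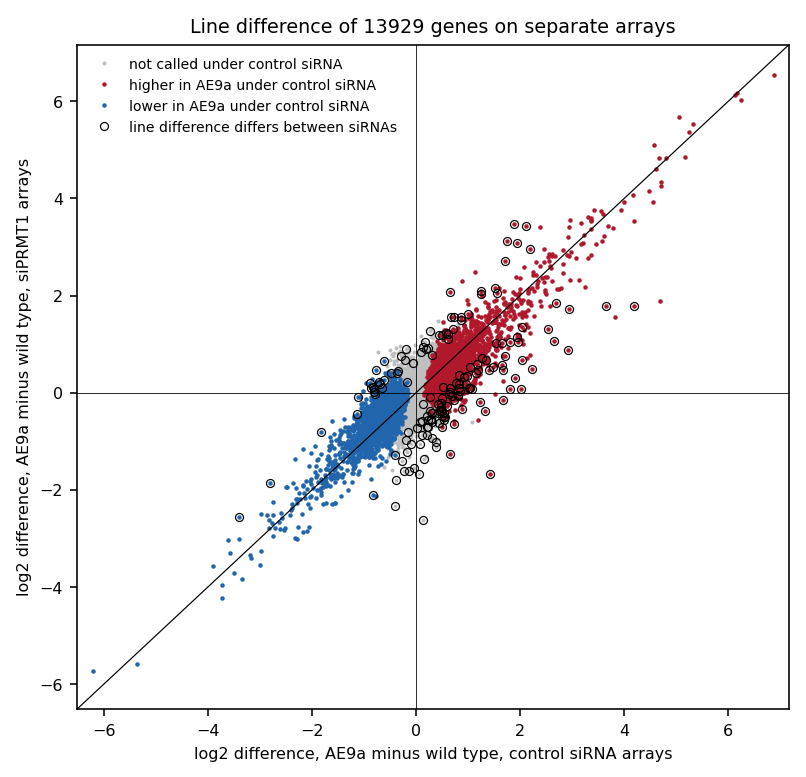
Line difference (log2, AE9a minus wild type) of 13929 genes on the control siRNA arrays (horizontal) and on the siPRMT1 arrays (vertical), with the line of equality. Red and blue points were called higher or lower under control siRNA, grey points were not, and the 160 circled genes had a line difference that changed with the siRNA. Points follow the line over the whole range (r = 0.862).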

How the data were processed

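Expression was measured on 12 Illumina arrays, 3 in each of 4 groups taken from the sample titles. The deposited intensity of each probe was used as the authors gave it, not normalized; the submitters' processing notes name GenomeStudio without a version. In R 4.3.3 with limma 3.58.1, intensities were corrected with normexp (offset 50), quantile normalized and taken to log2. Probes with a mean over 12 arrays above the 40th percentile were tested (28338 of 47231) in 1 fit of 4 group means with an intensity trend and 13.8 degrees of freedom, with Benjamini-Hochberg adjusted p-values over all tested probes. Of all probes 30113 have 1 symbol, 8 have several and 17110 have none; unnamed probes are in the fit only. The brightest probe stood for its gene. The number of arrays limits the precision. The fit was tested on simulated data.

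Members and lists, 44 gene groups and 6 marker lists, were chosen with earlier results of these data known. Named genes are 7 fixed genes, the 12 largest rises and falls whose arrays did not overlap, from each list the up to 4 called members of smallest adjusted p, and all hemoglobin, metallothionein and RUNX list members. Fixed cell type markers are named as well. Of the largest falls, 1 is not reported here. GAGE2A, SSX1, CT45A1, SPANXA1, MAGEA4, MAGEA9, ALAD, UROS, CPOX, UROD, ALAS1, BLVRA, KEL, ANK1, CA2, CLDN4, ATF4, ASNS, GAR1, ENO2, PGK1, EPAS1, GAPDH, LDHA, NFE2L2, HMOX1 and H19 fall outside this rule and were chosen after their values were seen. Promoter windows are RefSeq's on GRCh38.p14. Deviations of same-numbered replicates of the lines correlated weakly (0.20, 0.04 and 0.06). Replicates of unlike number gave -0.19 to 0.15. The main fit did not take numbers as pairs, and whether same-numbered replicates share an effect was not tested. Alternatives covered background correction, scaling, filters, the submitters' processed values, arrays fitted, a replicate block, array weights, the intensity trend and each array left out. Probe averaging was applied to list counts only.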

Additional observations from a re-analysis of the deposited data

Results flagged for a closer look

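For 21 named genes the difference between AE9a and wild type cells was not the same under control siRNA as under siPRMT1, by a limma test of that change over all tested probes. Values are the log2 line difference under control siRNA minus that under siPRMT1. Among metallothioneins it was 2.40 for MT2A, 2.03 for MT1E, 1.85 for MT1G, 1.58 for MT1H and 0.96 for MT1F, so their rise in AE9a cells was larger under control siRNA, and -0.83 for MT4, whose rise was smaller. The stress gene GDF15 gave 1.23 and was higher in AE9a cells under both siRNAs. INHBE (3.08), TRIB3 (1.83), DDIT3 (1.21) and the tRNA synthetase WARS1 (1.21) were higher in AE9a cells under control siRNA, and their line differences under siPRMT1 were -1.67, -0.15, -0.33 and -0.71. S100P (1.96) rose in AE9a cells under control siRNA and differed by 0.07 between lines under siPRMT1. The repressor BCL6 gave 1.75 and the platelet integrin ITGA2B 0.67. Histone H2A genes rose more under siPRMT1, with -1.37 for H2AC19, -1.32 for H2AC20 and -1.14 for H2AC18, and CAV1 (-0.84) did too. The GTPase RAB31 (-0.84) was lower in AE9a cells under both siRNAs, by more under control siRNA. The histone chaperone GRWD1 (-1.08) and the heat shock protein HSPA4 (-0.83) were lower under control siRNA, with line differences of 0.20 and 0.02 under siPRMT1. The largest adjusted p among the 21 was 0.0484, that of GRWD1, and H2AC18 and H2AC19 are near-identical copies that are not separate evidence.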

How the results depend on the processing

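Of 198 named genes called, 189 kept call and direction in all 16 alternatives that were followed gene by gene. CEBPA, HDAC1, GATA2, HBZ, PRTN3, PROCR, CD3D, LUM and KRT18 lost the call in at least 1, and none reversed. Averaging the probes of a gene is not among the 16 and was followed by list counts only. It took the lower members of the RUNX list from 2 to 1, so at least 1 named call was lost there. Counts of calls here are of probes. Requiring a change of at least 1.5-fold left 3754 of 7555 calls. Leaving out each control array gave 5818 to 7578 calls, 2921 to 3802 higher and 2897 to 3776 lower, and 193 to 244 higher and 145 to 178 lower list members. Probes whose line difference changed with the siRNA numbered 260, against 391 with probes above background on at least 3 arrays, 402 with a replicate block, 455 with array weights, 473 without the intensity trend and 83 to 349 on leaving out an array, with 114, 99 and 83 without AE9a control 1, 2 and 3; the cause was not tested. The replicate block gave 8007 calls on 12 arrays and 6065 on the 6 control arrays. A fit of only the 6 control arrays, without the block, gave 6402 calls. Median scaling gave 4444 higher and 2806 lower, and the submitters' values 4030 and 3608. Among genes that were not called, signs turned under median scaling for ID1 (0.0218), HBG1 (0.0322), HBG2 (0.100) and MTF1 (0.0458), and for ID1 with array weights (0.112). On leaving out an array, ID1 ran between -0.445 and 0.238, MTF1 between -0.136 and 0.0497 and RUNX2 between -0.143 and 0.0411. Low signal limits genes near the background level, whose differences are understated by the offset. The correlation with the siPRMT1 arrays stayed between 0.835 and 0.862 on leaving out an array.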

Other observations

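Some genes that were called in the same direction lay side by side on a chromosome, counting only tested genes in the order of their starts. Whether such stretches were longer than the shares of called genes alone would give was not tested. The longest stretch of higher genes held 16 genes on chromosome X, between PRICKLE3 and PAGE4, and includes near-identical GAGE copies whose probes may read each other. A further stretch on X held 10 genes between GPRASP3 and TCEAL4, with BEX1, BEX2 and several TCEAL genes, small proteins best known from neurons. Another 10, between HAUS7 and L1CAM, included PNCK, and 9, between TAFAZZIN and CTAG1A, included IKBKG, the regulatory subunit of the IkappaB kinase. ALAS2 and PAGE5 stood in 1 stretch of 7 higher genes on X, with APEX2, PAGE2B, PAGE2, VCF2 and MAGEH1. On chromosome 1 the Rh genes RHD and RHCE stood in a stretch of 6 higher genes with SYF2, RSRP1, TMEM50A and MACO1. The longest stretch of lower genes held 11 genes on chromosome 7, between BRI3 and ATP5MF, with the actin nucleation subunits ARPC1A and ARPC1B. The same chromosome held a stretch of 9 higher genes between ZNF425 and SSPOP, most of them zinc finger genes. CD44 stood in a stretch of 7 lower genes on chromosome 11, beside CAT (catalase) and PDHX. Neighbouring genes are not independent, and copy number was not tested.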
